A study of Mus musculus with 6 samples.

Results

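Mouse chondrocytes given transforming growth factor alpha (TGF-alpha) together with the receptor inhibitor gefitinib were compared with vehicle-treated chondrocytes across all genes, using 4 of the 6 libraries of the study: the 2 labelled Control and the 2 labelled TGF-α + Gefitinib. All 15362 genes with enough counts were tested, and the genes named below are a selection from them, some of it made after their values were seen. The cells were chondrocytes from the femoral epiphysis (the end of the thigh bone, which is cartilage in newborns) of C57BL/6 mice at postnatal day 1, grown in DMEM/F12 with 10% fetal bovine serum. Every group received 0.1% DMSO. Control cells had DMSO alone for 48 h. The combined treatment was 10 µM gefitinib for 30 min and then gefitinib with 10 ng/ml TGF-alpha for 48 h, and the remaining group had 10 ng/ml TGF-alpha for 48 h without the inhibitor. The libraries of the combined treatment are called combined 1 and combined 2 here. The series design names PBS as the control where the treatment protocol names DMSO, and the growth protocol calls the cells P2, a term it does not explain. No source used here says that replicates were separate cultures or animals, so the p-values cover only how far these samples spread, and that spread may be technical. No group with gefitinib alone was analysed here, so in this comparison the inhibitor and whatever the ligand still did in its presence cannot be told apart.

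TGF-alpha binds the epidermal growth factor receptor (EGFR), whose kinase then starts the RAS, RAF, MEK and ERK cascade as well as PI3K and AKT. ERK raises transcription of its own brakes, among them the Dusp, Spry and Spred genes, and of the ETS factors Etv1, Etv4 and Etv5. Gefitinib occupies the ATP site of the receptor kinase. Serum holds ligands of many receptors, so a control culture has basal signalling, and in growth cartilage EGFR signalling is known to act on matrix turnover and on the hypertrophic zone. The comparison asks which genes differed from control when ligand and inhibitor were given together, including those that went past control on the side away from TGF-alpha.

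Libraries held 12317407 to 16096263 counts. Summed chondrocyte markers, Col2a1 among them, were at 83120 and 77952 CPM (counts scaled to a fixed library size) in control and at 70680 and 68175 CPM in the combined treatment. In such bulk samples fewer cells of a type and less RNA per cell cannot be told apart. Markers of macrophages summed to 5.85 and 6.50 CPM against 7.67 and 9.99 CPM, the 9 endothelial markers summed to 0.624 and 0.828 CPM against 0.891 and 0.72 CPM, with Cdh5, Tie1, Emcn and Cldn5 at 0 in every library, and no neutrophil, lymphocyte or erythroid marker passed the filter on low counts. Rn18s-rs5, an entry related to ribosomal RNA, accounted for 1.39% and 1.36% of counts in control and 0.657% and 0.786% in the combined libraries. Mitochondrial mRNAs took 0.775% and 0.800% against 0.921% and 1.01%.

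Of the 15362 genes tested with edgeR's quasi-likelihood test, 1463 differed between the combined treatment and control at a Benjamini-Hochberg adjusted p under 0.05, which is 9.52% of the tested genes. Expression was higher in the combined treatment for 809 (5.27%) and lower for 654 (4.26%), and these shares are the background for every list count below. The differences were mostly small: the median called gene differed 1.29-fold, 317 called genes differed at least 1.5-fold (217 higher and 100 lower), 106 at least 2-fold (71 and 35) and 17 at least 4-fold (6 and 11). In all 1463 the 2 combined libraries lay on the same side of both controls, as they did in 52.1% of all tested genes. With the same libraries as controls, TGF-alpha alone changed 4600 genes, or 29.9%, and the combined treatment differed from TGF-alpha alone in 5217, or 34.0%. Of the 4600 genes that TGF-alpha changed, 3768 were not called between the combined treatment and control. That count rests on shared control libraries and on a threshold, so it does not show that those genes were exactly at the control level. The number of calls depended on single libraries, falling to 666 without control 1, 649 without control 2 and 893 without combined 2. Scaling by total counts instead of TMM moved the share of calls that were higher from 55.3% to 77.5%.

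The called genes were sorted by where the TGF-alpha libraries lay. In 282 genes (19.3% of the called) the combined treatment went beyond control: TGF-alpha moved the gene one way from control, and the combined libraries lay on the far side of control. Of these, 130 were raised and 152 lowered relative to control. Another 175 lay short of control: they differed from it in the same direction as with TGF-alpha but less far (61 higher and 114 lower). A further 375 differed from control in the same direction as with TGF-alpha and were not called closer to control (217 and 158). Gefitinib was given before TGF-alpha, so these names describe positions at 48 h and no course in time. The group of 490 lay apart from both, with no call between TGF-alpha and control and with the combined treatment on one side of both (315 and 175). In the remaining 141 neither of the other comparisons was called, or the calls formed another pattern (86 and 55). These numbers fell to 106 and 95 beyond control, 88 and 91 short of control, 166 and 163 for the same direction and 273 and 262 for apart from both, without control 1 and without control 2. Without combined 2, 108 lay short of control and 271 apart from both, and without TGF-alpha 2 the same direction held 244. The direction with TGF-alpha is part of how the genes were sorted and is no result of its own.

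**Figure D1:**
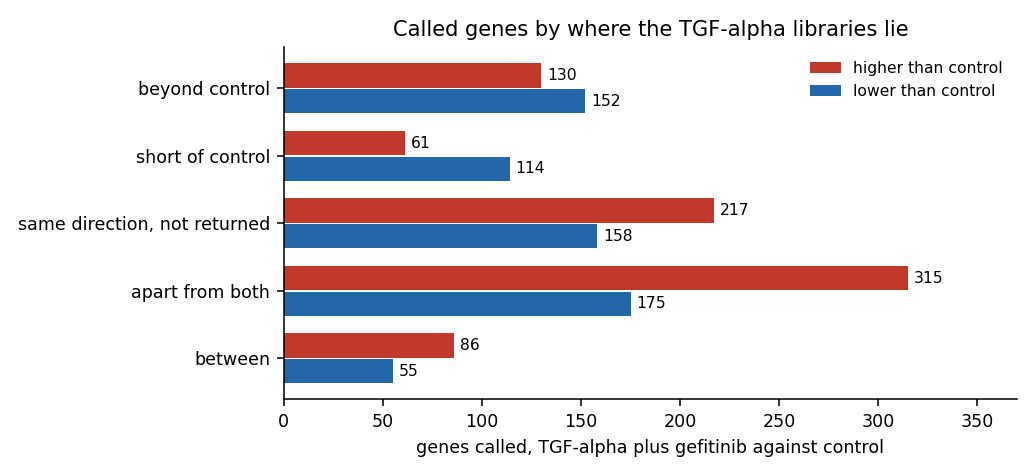
Number of genes called in TGF-alpha plus gefitinib against control (x axis), by where the TGF-alpha libraries lay (y axis); red bars are genes higher than control and blue bars genes lower. The group apart from both has the most genes, 315 higher and 175 lower, and the genes beyond control number 130 higher and 152 lower.

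Differences followed transcript length. For the 14064 tested genes with a GENCODE transcript length on the same build, the median log2 fold change was 0.11 in the shortest of 5 length bins (up to 1493 bases) and -0.10 in the longest (5077 bases or more). Genes called higher made up 8.32% of the shortest bin and 2.17% of the longest, and genes called lower 1.10% and 12.1%. TGF-alpha against control showed a flatter course, from 0.06 to -0.05, and the 2 comparisons share the control libraries. A fit that removes the smooth dependence on length and GC content in each library called 1177 genes, and its counts stand beside those lists below whose counts it changed.

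**Figure D2:**
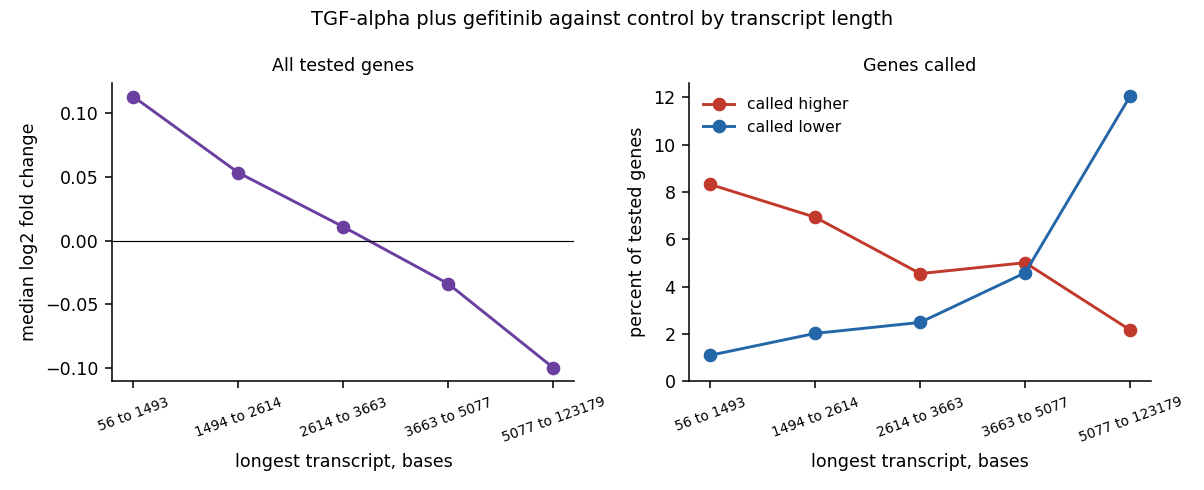
Median log2 fold change of all tested genes (left) and percent of tested genes called higher (red) or lower (blue) in the combined treatment against control (right), in 5 equal bins of the longest transcript in bases. The median falls from 0.11 to -0.10 and the share called lower rises from 1.10% to 12.1% from the shortest to the longest bin.

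The receptor itself was lower. Egfr mRNA was at 69.2 and 65.1 CPM in control, 71.97 and 70.3 CPM with TGF-alpha and 54.9 and 53.9 CPM with the combined treatment. Both combined libraries lay below both controls and both TGF-alpha libraries (log2 fold change -0.30 ± 0.066 (SE), adjusted p = 0.00926). Its longest annotated transcript has 10208 bases and falls in the longest bin. Tgfa, the gene for the ligand that was also added as protein, was at 30.6 and 29.4 CPM in control, 27.8 and 29.01 CPM with TGF-alpha and 37.3 and 37.9 CPM with the combined treatment, with both combined libraries above the other 4 (log2 fold change 0.33 ± 0.086 (SE), adjusted p = 0.0281). The other 9 tested receptor and ligand genes, among them the receptor gene Erbb2 and the ligand genes Hbegf and Ereg, were not called. Leaving out 1 library ended the calls of Egfr without control 1 (adjusted p 0.103) and Tgfa without control 1, control 2, combined 1 or combined 2 (adjusted p up to 0.174). The length and GC correction ended the calling of Egfr (log2 fold change -0.16, adjusted p = 0.167).

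Among 24 tested ERK feedback genes and targets, 3 were lower than control, 1 was higher and 20 were not called, against 9.52% of all genes called. The median log2 fold change of the list was -0.20, and 21 of the 24 fitted values were negative. Under the length and GC correction the list had 1 higher and 4 lower. Etv5, an ETS transcription factor whose mRNA follows ERK activity, was at 21.9 and 22.4 CPM in control, 73.99 and 71.8 CPM with TGF-alpha and 9.46 and 10.2 CPM with the combined treatment. Its combined libraries lay 2.26-fold below control (log2 fold change -1.18 ± 0.10 (SE), adjusted p = 5.60e-06). Spred1, a membrane-bound inhibitor of RAS signalling, was at 34.5 and 34.2 CPM in control and 27.9 and 23.99 CPM with the combined treatment (-0.40 ± 0.092, adjusted p = 0.013). Lrig3, a membrane protein of the family that binds receptor kinases, was at 255 and 259 CPM in control and 219.9 and 227 CPM with the combined treatment (-0.20 ± 0.048, adjusted p = 0.0151). Ier3, an early response gene that lowers ERK phosphatase activity, was the member that was higher, at 64.5 and 66.2 CPM in control and 83.7 and 85.5 CPM with the combined treatment (0.37 ± 0.062, adjusted p = 0.00151). Several responders to TGF-alpha were not called against control, which does not show that they were at its level. Dusp6, the cytoplasmic ERK phosphatase, was at 5.54 and 6.56 CPM in control, 48.4 and 49.2 CPM with TGF-alpha and 5.002 and 4.72 CPM with the combined treatment, and its difference between combined treatment and control missed the threshold (-0.32 ± 0.16, adjusted p = 0.233). Errfi1, an inhibitor of the EGFR kinase, was at 18.8 and 18.7 CPM in control and 15.01 and 16.3 CPM with the combined treatment (-0.26 ± 0.097, adjusted p = 0.111), and Fosl1, an AP-1 subunit, at 4.53 and 4.01 CPM in control and 4.04 and 3.68 CPM with the combined treatment (-0.13 ± 0.19, adjusted p = 0.739). Dusp6, Errfi1 and Fosl1 were chosen after their values were seen. The number lower in the list was 1 without control 1 or control 2. In fits with 1 library left out, the calls were lost for Spred1 without control 1, control 2 or combined 2 (adjusted p up to 0.122) and Lrig3 without control 1, control 2 or combined 1 (adjusted p up to 0.12).

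Of the genes lowered beyond control, those with the largest change by the fixed rule were Pcsk2, Dio3, Chst1, Etv5, Ptgs2, Ahr, Adam8 and Rnf39. Pcsk2, a prohormone convertase of the regulated secretory pathway, had the lowest ratio of the 8, at 11.9 and 12.4 CPM in control, 27.1 and 31.2 CPM with TGF-alpha and 4.11 and 3.44 CPM with the combined treatment (log2 fold change -1.68 ± 0.16 (SE), adjusted p = 1.35e-05). Dio3, the deiodinase that inactivates thyroid hormone, was at 4.68 and 4.90 CPM in control, 15.6 and 13.9 CPM with TGF-alpha and 1.44 and 2.16 CPM with the combined treatment (-1.43 ± 0.25, adjusted p = 0.00195). The keratan sulfate sulfotransferase gene Chst1 was at 3.59 and 4.65 CPM in control, 25.5 and 25.6 CPM with TGF-alpha and 1.92 and 1.68 CPM with the combined treatment (-1.20 ± 0.23, adjusted p = 0.00376). Each of these 3 had its combined libraries below both controls and its TGF-alpha libraries above them. Ptgs2, the inducible cyclooxygenase of prostaglandin synthesis, was at 8.35 and 7.77 CPM in control, 17.5 and 18.5 CPM with TGF-alpha and 3.70 and 4.24 CPM with the combined treatment (-1.02 ± 0.17, adjusted p = 0.00167). The metalloprotease Adam8 was at 8.74 and 8.53 CPM in control, 59.9 and 55.3 CPM with TGF-alpha and 4.93 and 4.16 CPM with the combined treatment (-0.92 ± 0.15, adjusted p = 0.00119). Ahr, the ligand-activated aryl hydrocarbon receptor, was at 59.4 and 59.7 CPM in control, 120.3 and 115 CPM with TGF-alpha and 30.8 and 29.3 CPM with the combined treatment (log2 fold change -0.99 ± 0.070 (SE), adjusted p = 7.33e-07), so its 2 combined values were about equal and lay below the controls. Rnf39, which encodes a RING finger protein, was at 8.43 and 9.68 CPM in control and 4.66 and 5.36 CPM with the combined treatment (-0.86 ± 0.18, adjusted p = 0.00606). Calls lost when a single library was left out were those of Chst1 and Rnf39 without control 2 (adjusted p 0.0606 and 0.073).

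Of 24 other receptor tyrosine kinases tested, 8 were lower and 3 higher than control, and 7 of these 11 lay beyond control. That is 45.8% of the list called, against 9.52% of all genes, and the length and GC correction left 3 higher and 7 lower. Pdgfra, the alpha receptor for platelet-derived growth factor and a marker of mesenchymal progenitors, was at 172 and 176 CPM in control, 329 and 326 CPM with TGF-alpha and 122 and 114 CPM with the combined treatment (log2 fold change -0.56 ± 0.052 (SE), adjusted p = 1.07e-05). Igf1r, the receptor for insulin-like growth factors, was at 113 and 108 CPM in control and 88.9 and 83.3 CPM with the combined treatment (-0.36 ± 0.067, adjusted p = 0.0036). Epha2, an ephrin receptor, was at 163 and 163 CPM in control, 167 and 159 CPM with TGF-alpha and 128 and 125 CPM with the combined treatment and lay apart from both other groups (-0.36 ± 0.053, adjusted p = 5.04e-04). Ntrk3, a neurotrophin receptor, was at 30.05 and 27.6 CPM in control and 18.5 and 20.4 CPM with the combined treatment (-0.57 ± 0.10, adjusted p = 0.00289). Fgfr1, a fibroblast growth factor receptor, was at 399 and 393 CPM in control, 512 and 541 CPM with TGF-alpha and 353 and 335 CPM with the combined treatment (-0.20 ± 0.048, adjusted p = 0.0154). Fgfr3, the receptor that restrains chondrocyte proliferation, moved the other way, at 460.3 and 472 CPM in control, 159 and 172 CPM with TGF-alpha and 562 and 540.1 CPM with the combined treatment (0.24 ± 0.049, adjusted p = 0.00596). Fgfr1 and Axl were chosen after their values were seen. Axl, a receptor of the TAM family, was at 108 and 119 CPM in control and 101 and 92.9 CPM with the combined treatment (-0.23 ± 0.063, adjusted p = 0.0347). The count of lower kinases was 4 without control 1, control 2 or combined 2, and that of higher kinases 0 without control 1 and 1 without control 2 or combined 1. Dropping 1 library removed the calls of Igf1r and Fgfr3 without control 1 (adjusted p 0.0536 and 0.0768), Fgfr1 without control 1, control 2 or combined 2 (adjusted p up to 0.118) and Axl without control 2, TGF-alpha 1, TGF-alpha 2 or combined 2 (adjusted p up to 0.305). With the length and GC correction the threshold was missed by Ntrk3 (log2 fold change -0.34, adjusted p = 0.071).

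Among 21 tested cytokine, chemokine and prostaglandin genes, 6 were lower and 1 was higher (1 higher and 7 lower with the length and GC correction), and the median log2 fold change was -0.16. Ptgs2 is described above. Il1r1, the signalling receptor for interleukin-1, was at 92.9 and 92.5 CPM in control, 144 and 159 CPM with TGF-alpha and 73.04 and 71.3 CPM with the combined treatment (-0.36 ± 0.063, adjusted p = 0.0022). Cxcl14, a chemokine made by mesenchymal cells, was at 31.5 and 27.7 CPM in control, 31.9 and 26.03 CPM with TGF-alpha and 18.8 and 17.8 CPM with the combined treatment, with the combined libraries below the other 4 (-0.69 ± 0.12, adjusted p = 0.00191). Il1rl1, the receptor for interleukin-33, was at 13.1 and 14.4 CPM in control, 151 and 142 CPM with TGF-alpha and 9.04 and 9.51 CPM with the combined treatment (-0.57 ± 0.11, adjusted p = 0.00339), and it was chosen after its values were seen. Tnfrsf11b, which encodes the RANKL decoy osteoprotegerin, was the member that was higher, at 146 and 149 CPM in control, 261 and 255 CPM with TGF-alpha and 189 and 176 CPM with the combined treatment (0.31 ± 0.053, adjusted p = 0.00189). Leaving out 1 library ended the calls of Il1rl1 without control 2 (adjusted p 0.0584).

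**Figure D3:**
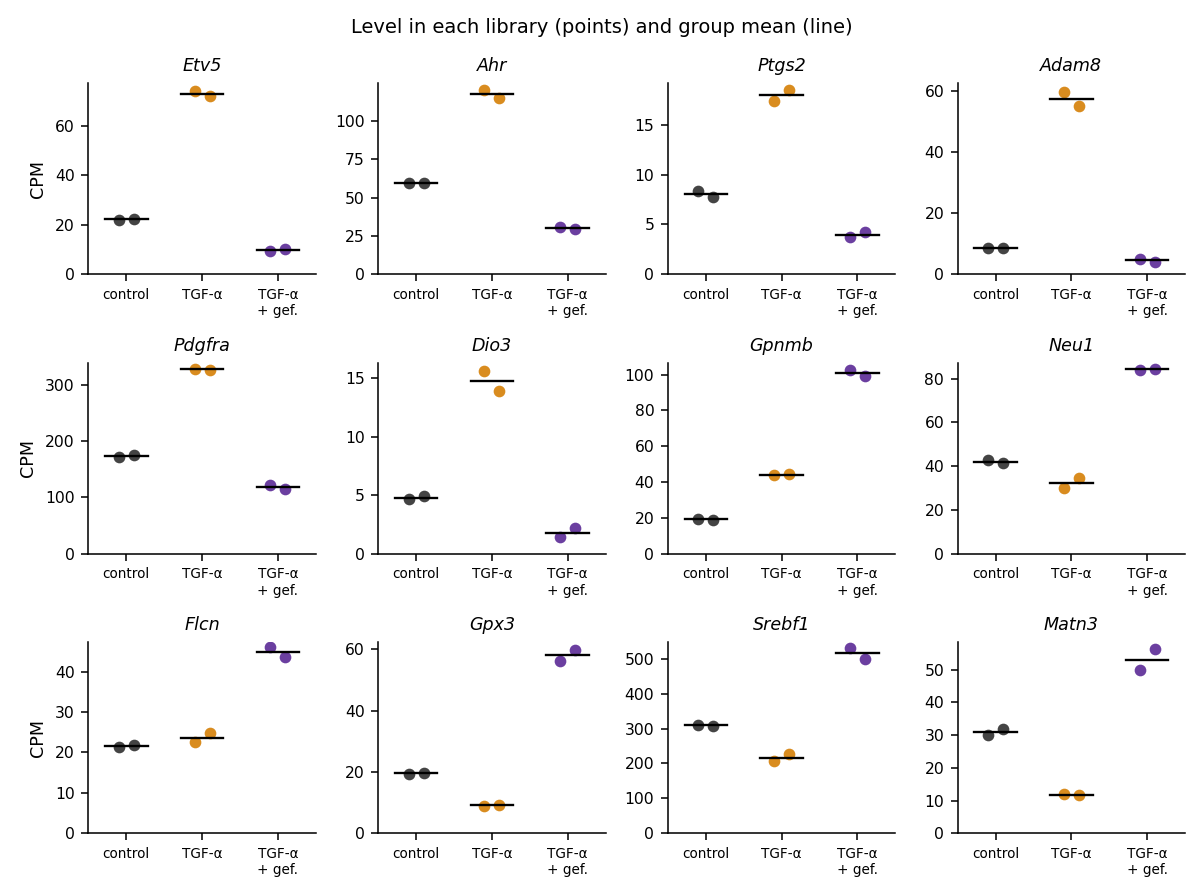
Level in CPM (y axis, from 0) of 12 genes in each library (points) with the group mean (line), for control, TGF-alpha and TGF-alpha plus gefitinib. Etv5, Ahr, Ptgs2, Adam8, Pdgfra and Dio3 have their combined libraries below the controls and their TGF-alpha libraries above, and the other 6 have their combined libraries above the controls.

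The genes raised beyond control were led by Gpx3, Fabp5, Neu1, Atf3, Enpp2, Nov, Ddit3 and Bdh1. Gpx3, a secreted glutathione peroxidase, was at 19.4 and 19.8 CPM in control, 8.94 and 9.31 CPM with TGF-alpha and 56.3 and 59.8 CPM with the combined treatment (log2 fold change 1.56 ± 0.091 (SE), adjusted p = 1.45e-07). Its combined libraries were 2.96-fold above control. Enpp2, which encodes autotaxin, the enzyme that makes lysophosphatidic acid, was at 51.5 and 52.5 CPM in control, 12.98 and 15.1 CPM with TGF-alpha and 98.3 and 100.2 CPM with the combined treatment (0.93 ± 0.070, adjusted p = 1.49e-06). Nov, the matricellular protein CCN3, was at 30.8 and 33.6 CPM in control, 18.8 and 16.9 CPM with TGF-alpha and 64.1 and 55.1 CPM with the combined treatment (0.89 ± 0.096, adjusted p = 3.61e-05). Bdh1, a mitochondrial ketone body dehydrogenase, was at 4.995 and 6.18 CPM in control and 9.94 and 10.2 CPM with the combined treatment (0.84 ± 0.20, adjusted p = 0.0145). In each of these 4 the TGF-alpha libraries were the lowest and the combined libraries the highest. Ppp1r1b, a phosphatase inhibitor placed here in the hypertrophy list, was at 119 and 113 CPM in control, 51.1 and 54.9 CPM with TGF-alpha and 192 and 196 CPM with the combined treatment (0.75 ± 0.057, adjusted p = 1.60e-06). Timp2, an inhibitor of matrix metalloproteinases, was at 1560.2 and 1612 CPM in control and 1999 and 1955 CPM with the combined treatment (0.32 ± 0.040, adjusted p = 1.62e-04), and Mmp14, a membrane-bound collagenase that Timp2 binds, was at 344 and 335 CPM in control and 463 and 464 CPM with the combined treatment (0.45 ± 0.044, adjusted p = 1.57e-05). These were the 2 higher members of the matrix protease list. Of its called members 2 lay beyond control, 1 short of control and 1 apart from both. Mmp13, which was lower, was among those beyond control, so Timp2 and Mmp14 did not both lie beyond it. In fits with 1 library left out, the calls were lost for Bdh1 without control 1, combined 1 or combined 2 (adjusted p up to 0.12).

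Of 32 tested genes of the integrated stress response, in which ATF4 raises amino acid and redox genes, 8 were higher and 1 was lower. The length and GC correction gave 5 higher and 3 lower, and DESeq2 called 5 higher and 0 lower, while edgeR's unadjusted p was under 0.05 for 9 higher and 5 lower. The median log2 fold change of the list was 0.02. Ddit3, which encodes the transcription factor CHOP, was at 159 and 156 CPM in control, 98.7 and 106 CPM with TGF-alpha and 276 and 294 CPM with the combined treatment (log2 fold change 0.85 ± 0.055 (SE), adjusted p = 3.46e-07). Atf3, a stress-induced partner of ATF4, was at 9.60 and 11.8 CPM in control, 4.54 and 3.78 CPM with TGF-alpha and 18.8 and 23.5 CPM with the combined treatment (0.97 ± 0.15, adjusted p = 9.76e-04). Atf3 belongs to the list of immediate early genes and is not part of the counts or the median of this list. Trib3, an inhibitory target of CHOP, was at 265 and 259 CPM in control and 315 and 309 CPM with the combined treatment (0.25 ± 0.047, adjusted p = 0.00338), and the glutathione-degrading enzyme gene Chac1 at 124 and 126 CPM in control and 170.5 and 151 CPM with the combined treatment (0.36 ± 0.073, adjusted p = 0.00616). Sars, a tRNA synthetase, was at 384 and 392.1 CPM in control and 450.4 and 456 CPM with the combined treatment (0.22 ± 0.044, adjusted p = 0.00447). Atf4 mRNA itself was at 539 and 540.5 CPM in control and 552 and 546 CPM with the combined treatment and was not called (0.02 ± 0.043, adjusted p = 0.804), and it was chosen after its values were seen. The cystine transporter gene Slc7a11 was the member that fell, at 9.44 and 8.66 CPM in control and 5.69 and 4.80 CPM with the combined treatment (-0.78 ± 0.20, adjusted p = 0.0205). The count of higher members was 2 without control 1, 3 without control 2, 4 without combined 1 and 5 without combined 2. Calls lost when a single library was left out were those of Trib3 without control 2 (adjusted p 0.058), Chac1 without control 1, control 2 or combined 1 (adjusted p up to 0.0687) and Sars without control 1 (adjusted p 0.0611). The same held for Slc7a11 without control 1, control 2 or combined 2 (adjusted p up to 0.127). The length and GC correction ended the calling of Slc7a11 (log2 fold change -0.63, adjusted p = 0.0612).

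Most of the listed lysosomal genes were higher. Of 40 tested lysosome and autophagy genes, 33 were higher and 7 were not called, against 5.27% of all genes called higher. Their median log2 fold change was 0.47 against 0.00 over all tested genes. Like the other lists, this one was chosen with earlier results of these data known. Its share beside that of all genes is therefore a description and not a test. Lysosomes degrade material from endocytosis and autophagy, and the transcription factors TFEB, TFE3 and MITF raise many lysosomal genes through a short element whose core is TCACGTG. These factors are held in the cytoplasm by mTORC1 through the RagC and RagD GTPases, for which folliculin (Flcn) and its partners Fnip1 and Fnip2 serve as activators. Of the list members called, 14 lay apart from both other groups, 15 differed from control in the same direction with TGF-alpha, 3 lay beyond control and 1 between. The number higher was 26 to 33 over the 6 fits that left out 1 library, and 31 with the length and GC correction.

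Promoters were taken from RefSeq windows on GRCm38.p6 that run from 250 bases before to 50 bases after a gene's start, and 33 of the 40 genes had one. The letters TCACGTG were searched on both strands, and the 8-base palindrome TCACGTGA counts as overlapping matches on either strand. They occurred in the windows of 10 of the 33 genes, or 30.3%, of which 9 were called (Lamp1, Ctsa, Ctsd, Gaa, Glb1, Naglu, Mcoln1, Atp6v0d1 and Fnip1) and Gla was not. They occurred in 4.29% of all 27025 genes with a window and in 6.90% of the 9760 tested ones. Of the 33 genes 26 were called, so the share among called members was 9 of 26, or 34.6%. The element is known from lysosomal genes and the list was made of such genes. These shares therefore describe the list and do not link the element to the rise. The windows of Gpnmb, Flcn and Neu1 held no such letters. A match describes the sequence and does not show that a factor binds there. The 4 called genes with a match and the largest rise are shown to let the element be seen in place, each as the 250 bases before the gene's start, 5′ to 3′ in the gene's direction, with matches in capitals:
Ctsd (chr7:142387828-142388077, minus strand): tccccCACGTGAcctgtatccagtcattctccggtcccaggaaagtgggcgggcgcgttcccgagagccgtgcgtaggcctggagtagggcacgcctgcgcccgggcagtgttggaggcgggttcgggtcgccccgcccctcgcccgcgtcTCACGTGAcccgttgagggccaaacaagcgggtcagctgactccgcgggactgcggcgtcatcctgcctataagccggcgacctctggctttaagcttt
Lamp1 (chr8:13158911-13159160, plus strand): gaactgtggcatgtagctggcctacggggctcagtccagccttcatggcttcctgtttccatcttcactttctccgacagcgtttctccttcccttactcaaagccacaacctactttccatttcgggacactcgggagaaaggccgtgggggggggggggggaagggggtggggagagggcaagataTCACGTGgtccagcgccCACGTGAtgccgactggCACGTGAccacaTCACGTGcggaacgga
Ctsa (chr2:164833523-164833772, plus strand): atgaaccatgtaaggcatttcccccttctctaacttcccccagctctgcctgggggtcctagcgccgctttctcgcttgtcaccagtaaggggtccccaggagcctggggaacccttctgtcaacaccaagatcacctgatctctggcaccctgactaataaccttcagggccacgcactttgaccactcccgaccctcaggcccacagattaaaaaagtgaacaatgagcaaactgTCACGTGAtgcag
Gaa (chr11:119267713-119267962, plus strand): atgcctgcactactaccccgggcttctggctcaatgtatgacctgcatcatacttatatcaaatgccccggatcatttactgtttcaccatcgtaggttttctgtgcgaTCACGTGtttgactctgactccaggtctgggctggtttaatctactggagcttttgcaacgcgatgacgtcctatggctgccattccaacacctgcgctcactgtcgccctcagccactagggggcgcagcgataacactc
In Lamp1 the 4 matches started 62, 45, 28 and 16 bases before the gene's start, and in Ctsd 1 overlapping pair lay 99 bases before it.

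The genes behind these promoters differed as follows. Ctsd, the aspartyl protease cathepsin D, was at 1284 and 1251 CPM in control, 1382 and 1436 CPM with TGF-alpha and 2066 and 2131 CPM with the combined treatment (log2 fold change 0.73 ± 0.042 (SE), adjusted p = 1.45e-07). Lamp1, a main glycoprotein of the lysosomal membrane, was at 471 and 469.6 CPM in control, 489 and 494 CPM with TGF-alpha and 706 and 722 CPM with the combined treatment (0.60 ± 0.042, adjusted p = 6.88e-07). Ctsa, the protective protein of neuraminidase, was at 402 and 382 CPM in control and 571 and 580.2 CPM with the combined treatment (0.55 ± 0.052, adjusted p = 1.07e-05), and Gaa, which breaks down glycogen, was at 497 and 478 CPM in control, 431 and 445 CPM with TGF-alpha and 714 and 662 CPM with the combined treatment (0.50 ± 0.048, adjusted p = 1.50e-05). In these genes the combined libraries lay above the other 4. Lamp1, Ctsa and Gaa were chosen for their promoters after their values were seen.

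Gpnmb, a transmembrane glycoprotein of lysosomes and melanosomes, had the largest rise of the genes named by the fixed rule, at 19.5 and 19.04 CPM in control, 43.7 and 44.5 CPM with TGF-alpha and 103 and 99.1 CPM with the combined treatment (log2 fold change 2.39 ± 0.073 (SE), adjusted p = 1.56e-10). That is 5.23-fold above control and above the TGF-alpha libraries too. Ctsl, a cysteine protease, was at 254 and 254 CPM in control, 303 and 312 CPM with TGF-alpha and 426 and 448 CPM with the combined treatment (0.78 ± 0.047, adjusted p = 2.06e-07). Neu1, the lysosomal sialidase, was at 42.6 and 41.3 CPM in control, 29.9 and 34.8 CPM with TGF-alpha and 83.8 and 84.6 CPM with the combined treatment (1.00 ± 0.076, adjusted p = 1.55e-06). Hexa, a subunit of beta-hexosaminidase, was at 186 and 191 CPM in control and 279 and 287 CPM with the combined treatment (0.59 ± 0.051, adjusted p = 5.40e-06). Npc2, which carries cholesterol out of the lysosome, stood at 255 and 256 CPM in control, 456 and 473 CPM with TGF-alpha and 414 and 447 CPM with the combined treatment, so its combined libraries were above control and no higher than with TGF-alpha (0.75 ± 0.050, adjusted p = 4.18e-07). Ctsk, the collagen-degrading cathepsin of osteoclasts, was at 63.6 and 64.95 CPM in control and 97.98 and 98.7 CPM with the combined treatment (0.61 ± 0.068, adjusted p = 4.53e-05). The 8 osteoclast markers, Ctsk included, summed to 66.3 and 67.2 CPM in control and 101 and 103 CPM in the combined treatment. Of the 2 tested, Acp5 was not called, at 2.26 and 1.72 CPM in control and 2.74 and 3.84 CPM with the combined treatment (0.72 ± 0.31, adjusted p = 0.178), and Dcstamp, Calcr and Atp6v0d2 were at 0 in every library. The part of osteoclasts in the Ctsk result was not tested. Hexa was chosen after its values were seen.

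Flcn, the folliculin gene, was at 21.3 and 21.7 CPM in control, 22.5 and 24.9 CPM with TGF-alpha and 46.04 and 43.6 CPM with the combined treatment (log2 fold change 1.06 ± 0.093 (SE), adjusted p = 5.60e-06), 2.08-fold above control and apart from both other groups. Fnip2 was at 12.6 and 15.3 CPM in control and 26.2 and 25.2 CPM with the combined treatment (0.87 ± 0.12, adjusted p = 3.62e-04), and Fnip1 at 26.2 and 30.6 CPM in control and 39.1 and 41.3 CPM with the combined treatment (0.50 ± 0.094, adjusted p = 0.00364). Rragd, the RagD GTPase, was at 0.703 and 0.891 CPM in control and 3.08 and 2.72 CPM with the combined treatment (1.84 ± 0.36, adjusted p = 0.00466), near the low end of what was measured. The list holds 4 genes of the V-ATPase proton pump, and Atp6ap1, Atp6v1b2, Atp6v0d1 and Atp6v1h had log2 fold changes of 0.58, 0.56, 0.44 and 0.28. The autophagy receptor Sqstm1 was at 315 and 317 CPM in control and 427 and 459 CPM with the combined treatment (0.49 ± 0.048, adjusted p = 1.61e-05). mRNA of the factors themselves was not called: Tfeb was at 11.6 and 10.1 CPM in control and 8.91 and 10.4 CPM with the combined treatment (-0.17 ± 0.15, adjusted p = 0.541), Tfe3 at 56.5 and 56.9 CPM in control and 58.6 and 52.2 CPM with the combined treatment (-0.03 ± 0.072, adjusted p = 0.851) and Mitf at 7.73 and 5.48 CPM in control and 5.07 and 6.80 CPM with the combined treatment (-0.15 ± 0.23, adjusted p = 0.754). Wipi1, Uvrag, Ctsf and Gla were not called either. The members named here except Flcn were chosen after their values were seen. Dropping 1 library removed the calls of Fnip1 and Rragd without control 1 (adjusted p 0.0577 and 0.0512) and Atp6v1h without control 1, control 2 or combined 2 (adjusted p up to 0.16).

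Fatty acid genes were higher, 14 of 24 tested with 10 not called, and the list's median log2 fold change was 0.37. With the length and GC correction the number higher was 15. Srebf1, which encodes the transcription factor that drives fatty acid synthesis, was at 310.1 and 309 CPM in control, 206 and 228 CPM with TGF-alpha and 532 and 500.0 CPM with the combined treatment (log2 fold change 0.74 ± 0.054 (SE), adjusted p = 1.11e-06). Scd1 and Scd2 encode stearoyl-CoA desaturases, which make monounsaturated fatty acids. Scd1 was at 76.1 and 78.3 CPM in control, 128 and 127 CPM with TGF-alpha and 140.4 and 135 CPM with the combined treatment (0.83 ± 0.056, adjusted p = 4.37e-07), and Scd2 at 626 and 618 CPM in control, 813 and 778 CPM with TGF-alpha and 1019 and 972 CPM with the combined treatment (0.68 ± 0.044, adjusted p = 4.10e-07), so both were above control with TGF-alpha and in the combined libraries. Only Scd2 was also called between the combined treatment and TGF-alpha. Fasn, the fatty acid synthase, was at 262 and 258 CPM in control and 373 and 328 CPM with the combined treatment (0.43 ± 0.058, adjusted p = 2.42e-04). The desaturase gene Fads1 was at 281 and 282 CPM in control, 242 and 237 CPM with TGF-alpha and 364 and 346 CPM with the combined treatment (0.34 ± 0.047, adjusted p = 3.46e-04). Among storage and transport genes, Plin4, a coat protein of lipid droplets, was at 6.32 and 6.43 CPM in control, 8.15 and 6.69 CPM with TGF-alpha and 18.4 and 16.6 CPM with the combined treatment (1.45 ± 0.15, adjusted p = 3.22e-05), and Fabp5, a fatty acid binding protein, was at 10.5 and 11.8 CPM in control, 7.07 and 8.51 CPM with TGF-alpha and 21.99 and 23.3 CPM with the combined treatment (1.01 ± 0.13, adjusted p = 1.65e-04). Lpl, the lipoprotein lipase, was at 17.6 and 22.9 CPM in control and 29.1 and 29.7 CPM with the combined treatment (0.53 ± 0.12, adjusted p = 0.0135). Pparg, the adipocyte transcription factor, was at 9.13 and 7.90 CPM in control and 8.02 and 8.16 CPM with the combined treatment and was not called. Fasn, Fads1 and Lpl were chosen after their values were seen. Leaving out 1 library ended the calls of Lpl without control 1 or combined 2 (adjusted p up to 0.153).

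Cholesterol genes were higher than control in part. Of 23 tested, 11 were higher than control and 12 not called, with a median log2 fold change of 0.29, and 8 of the 11 were called lower than with TGF-alpha. Insig1, which retains the SREBP complex in the endoplasmic reticulum and is itself a target of it, was at 23.1 and 24.2 CPM in control, 43.1 and 45.4 CPM with TGF-alpha and 49.5 and 46.2 CPM with the combined treatment (log2 fold change 1.02 ± 0.085 (SE), adjusted p = 4.02e-06). Fdps, farnesyl diphosphate synthase, was at 26.1 and 28.6 CPM in control, 48.7 and 48.9 CPM with TGF-alpha and 40.6 and 37.1 CPM with the combined treatment (0.50 ± 0.088, adjusted p = 0.00208). The count of higher members was 6 without control 1 or control 2 and 7 without combined 1 or combined 2, and 8 with the length and GC correction. The sterol element TCACNCCAC was found in the promoter window of 1 of 15 cholesterol genes (Hmgcs1) and of 0 of 16 fatty acid genes, where 1.44% of all genes had it. Hmgcs1 was not called (log2 fold change 0.16, adjusted p = 0.181), and 0 of 7 called cholesterol genes had the element. The lysosomal core TCACGTG occurred in 3 of the 15 cholesterol genes (20%) and 2 of the 16 fatty acid genes (12.5%), against 4.29% of all genes.

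**Figure D4:**
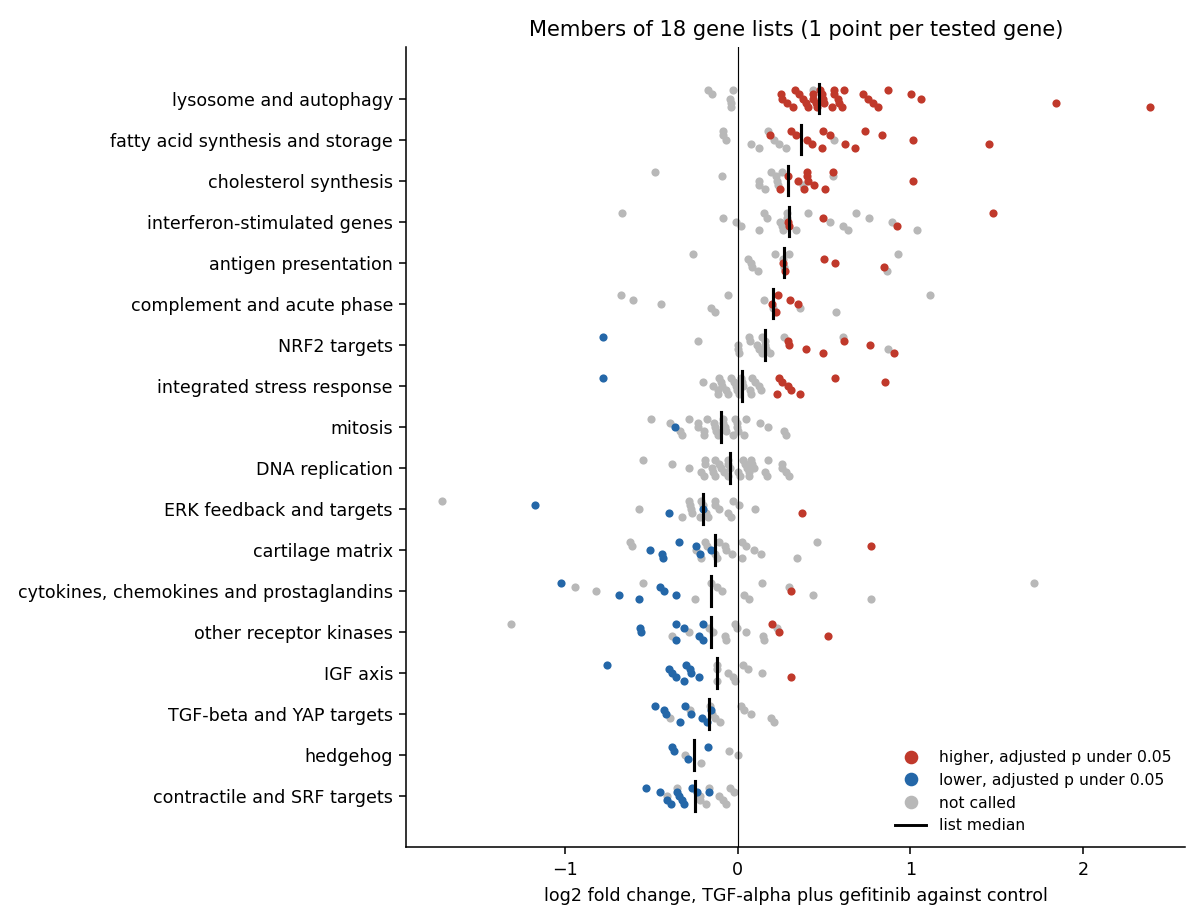
Log2 fold change of TGF-alpha plus gefitinib against control (x axis) for each tested member (points) of 18 gene lists (y axis), red or blue where called higher or lower and grey where not, with the list median as a black bar. The lysosome list has 33 of 40 members called higher and a median of 0.47, and the contractile list has 11 of 22 called lower and a median of -0.25.

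Mt1 and Mt2 encode metallothioneins, small proteins that bind zinc and copper. Mt1 was at 26.6 and 28.1 CPM in control, 139.8 and 148 CPM with TGF-alpha and 85.2 and 83.7 CPM with the combined treatment (log2 fold change 1.62 ± 0.069 (SE), adjusted p = 6.68e-09), and Mt2 at 18.03 and 18.1 CPM in control, 134 and 129 CPM with TGF-alpha and 48.99 and 46.2 CPM with the combined treatment (1.40 ± 0.077, adjusted p = 1.06e-07). Both lay between control and TGF-alpha. Of 25 tested NRF2 targets, the antioxidant genes that NRF2 activates, 7 were higher and 1 was lower, with a median log2 fold change of 0.16. Hmox1, the heme oxygenase that frees iron from heme, was at 115 and 112 CPM in control, 90.0003 and 89.1 CPM with TGF-alpha and 191 and 194 CPM with the combined treatment (0.76 ± 0.052, adjusted p = 5.49e-07). Ferritin stores iron, and its heavy chain gene Fth1 was at 717 and 690.3 CPM in control, 1236 and 1260.0 CPM with TGF-alpha and 963 and 1019 CPM with the combined treatment (0.49 ± 0.045, adjusted p = 7.20e-06). The light chain gene Ftl1 was at 568 and 603 CPM in control, 785 and 874 CPM with TGF-alpha and 1134 and 1057 CPM with the combined treatment (0.90 ± 0.056, adjusted p = 2.48e-07), but its near-identical copy Ftl2 shares reads with it in an unknown way, so both are uncertain. The number of higher NRF2 targets was 4 without control 2, and the length and GC correction left 5 higher and 0 lower. Of 9 tested genes of the aryl hydrocarbon receptor and its targets, 1 was higher and 1 lower (22.2% called against 9.52% of all genes), and the rest were not called. Ahr was the lower one, as given above. Its target Cyp1b1, a cytochrome P450, was the higher one, at 91.6 and 92.9 CPM in control, 95.6 and 86.6 CPM with TGF-alpha and 141 and 135 CPM with the combined treatment (0.58 ± 0.062, adjusted p = 3.22e-05).

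Further genes among the 12 largest rises were Uap1l1, Renbp and Kif1a. Uap1l1, a relative of the pyrophosphorylase that makes UDP-N-acetylglucosamine, was at 37.5 and 33.7 CPM in control, 59.3 and 67.8 CPM with TGF-alpha and 108 and 106 CPM with the combined treatment (log2 fold change 1.59 ± 0.079 (SE), adjusted p = 3.72e-08). Renbp, which turns N-acetylglucosamine into N-acetylmannosamine, was at 5.23 and 4.52 CPM in control, 8.08 and 8.43 CPM with TGF-alpha and 17.8 and 13.4 CPM with the combined treatment (1.69 ± 0.18, adjusted p = 3.33e-05). Gnpda1, which deaminates glucosamine 6-phosphate toward glycolysis, was at 12.8 and 11.4 CPM in control, 16.7 and 17.9 CPM with TGF-alpha and 25.6 and 22.1 CPM with the combined treatment (0.99 ± 0.12, adjusted p = 1.25e-04). In all 3 the combined libraries lay above both TGF-alpha libraries, which lay above control. Gfpt1, which makes glucosamine 6-phosphate, was lower than control at 206 and 210.0 CPM in control and 179 and 181 CPM with the combined treatment (-0.21 ± 0.049, adjusted p = 0.0129). Its paralog Gfpt2 was at 64.001 and 70.4 CPM in control and 65.4 and 64.1 CPM with the combined treatment and was not called (-0.05 ± 0.071, adjusted p = 0.705). Gnpda1, Gfpt1 and Gfpt2 belong to no list used here and were chosen after their values were seen. Genes named from those apart from both other groups or from the largest rises were Ogdhl, a relative of the oxoglutarate dehydrogenase, at 22.6 and 21.8 CPM in control and 47.9 and 44.1 CPM with the combined treatment (1.05 ± 0.092, adjusted p = 5.60e-06), the acyl-CoA binding protein gene Dbi at 108 and 100.04 CPM in control and 181 and 204 CPM with the combined treatment (0.89 ± 0.065, adjusted p = 1.11e-06), and Kif1a, a kinesin of vesicle transport, at 4.37 and 3.31 CPM in control and 11.7 and 9.51 CPM with the combined treatment (1.48 ± 0.21, adjusted p = 3.83e-04). In fits with 1 library left out, the calls were lost for Gfpt1 without control 1 or control 2 (adjusted p up to 0.112). With the length and GC correction the threshold was missed by Gfpt1 (log2 fold change -0.14, adjusted p = 0.0926).

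Cartilage matrix genes were mostly near control or slightly below it. Of 27 tested, 7 were lower, 1 was higher and 19 were not called (1 higher and 9 lower with the length and GC correction), and the median log2 fold change was -0.13, against -1.25 for the same list with TGF-alpha alone, which shares the controls. Col9a1, a chain of collagen IX on the fibril surface, was at 2575 and 2462 CPM in control, 847 and 817 CPM with TGF-alpha and 1747 and 1791 CPM with the combined treatment (log2 fold change -0.51 ± 0.042 (SE), adjusted p = 3.63e-06). Col11a1, which nucleates cartilage fibrils, was at 12495 and 11996 CPM in control, 5202 and 5076 CPM with TGF-alpha and 9694 and 9628 CPM with the combined treatment (-0.34 ± 0.039, adjusted p = 6.15e-05). Matn1, a filament-forming matrilin, was at 1323 and 1362 CPM in control, 79.2 and 98.4 CPM with TGF-alpha and 975 and 1010.1 CPM with the combined treatment (-0.44 ± 0.065, adjusted p = 5.52e-04), and Epyc, a small leucine-rich proteoglycan, at 136 and 145 CPM in control, 88.3 and 89.5 CPM with TGF-alpha and 99.8 and 108 CPM with the combined treatment (-0.44 ± 0.060, adjusted p = 2.93e-04). Col2a1, the main collagen of cartilage, was at 50966 and 47236 CPM in control, 28129.6 and 27134 CPM with TGF-alpha and 43588 and 40569.8 CPM with the combined treatment (-0.22 ± 0.047, adjusted p = 0.00733). Each of these genes was below control in both combined libraries and above both TGF-alpha libraries. Acan, the core of the main cartilage proteoglycan, was at 5897 and 5529.6 CPM in control and 5821 and 5969 CPM with the combined treatment, with overlapping libraries (0.05 ± 0.045, adjusted p = 0.61). Matn3, another matrilin, rose beyond control, at 30.1 and 31.8 CPM in control, 11.9 and 11.7 CPM with TGF-alpha and 49.9 and 56.2 CPM with the combined treatment (0.77 ± 0.090, adjusted p = 7.33e-05). Matn1, Col2a1 and Acan were chosen after their values were seen. Calls lost when a single library was left out were those of Col2a1 without control 1 (adjusted p 0.0829).

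Factors that direct chondrocyte fate were lower in 5 of 18 tested cases, and the median log2 fold change was -0.20. Sox9, the master factor of chondrocytes, was at 351 and 354 CPM in control, 272 and 268 CPM with TGF-alpha and 316 and 304 CPM with the combined treatment (-0.19 ± 0.046, adjusted p = 0.0188), and its partner Sox6 at 180.0 and 182 CPM in control, 111 and 109.6 CPM with TGF-alpha and 157 and 152 CPM with the combined treatment (-0.23 ± 0.051, adjusted p = 0.0104). Trps1, a repressor active in growth plate chondrocytes, was at 122 and 125 CPM in control, 131 and 127 CPM with TGF-alpha and 90.4 and 89.4 CPM with the combined treatment and lay below the other 4 libraries (-0.46 ± 0.055, adjusted p = 1.01e-04). The zinc finger factor Zfp521 was at 206 and 197 CPM in control and 171 and 168 CPM with the combined treatment (-0.25 ± 0.054, adjusted p = 0.00977). The number lower was 2 without control 1, control 2 or combined 2, and 3 with the length and GC correction. Of 19 hypertrophy and mineralization genes, 4 were lower and 2 higher (2 higher and 6 lower with the correction). Ibsp, bone sialoprotein, was at 106 and 107 CPM in control, 42.5 and 45.6 CPM with TGF-alpha and 56.4 and 63.2 CPM with the combined treatment (-0.84 ± 0.069, adjusted p = 3.63e-06). Mmp13, the collagenase of hypertrophic cartilage, was at 178 and 184 CPM in control, 198 and 205 CPM with TGF-alpha and 139 and 144 CPM with the combined treatment (-0.35 ± 0.052, adjusted p = 5.04e-04). The number lower in that list was 2 without control 1. Dropping 1 library removed the calls of Sox9 and Sox6 without control 1, control 2 or combined 2 (adjusted p up to 0.13 and 0.0935) and Zfp521 without control 1 (adjusted p 0.112). The length and GC correction ended the calling of Sox6 (log2 fold change -0.11, adjusted p = 0.186).

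Of 14 tested markers of fibroblasts and perichondrium, 8 were lower and 6 not called, with fitted log2 fold changes from -1.02 to 0.75. The summed fibroblast and perichondrium markers were at 28981 and 26926 CPM in control, 20259 and 19870 CPM with TGF-alpha and 21339 and 20815 CPM in the combined treatment. Col1a1 and Col1a2 encode the chains of collagen I. Col1a1 was at 6422 and 6019.5 CPM in control and 4891 and 4380.1 CPM with the combined treatment (log2 fold change -0.42 ± 0.052 (SE), adjusted p = 1.19e-04), and Col1a2 at 12107 and 11119.9 CPM in control and 8536 and 8363 CPM with the combined treatment (-0.46 ± 0.044, adjusted p = 1.45e-05). Col3a1, the collagen of loose connective tissue, was at 5145 and 4644 CPM in control, 5234 and 4857 CPM with TGF-alpha and 3309 and 3611 CPM with the combined treatment, so TGF-alpha alone left it near control (-0.50 ± 0.056, adjusted p = 5.05e-05). Postn, the matricellular protein periostin, was at 104 and 104 CPM in control, 71.2 and 80.7 CPM with TGF-alpha and 59.8 and 60.5 CPM with the combined treatment (-0.79 ± 0.068, adjusted p = 5.18e-06), and Dpt, dermatopontin, at 17.9 and 16.2 CPM in control, 4.98 and 4.65 CPM with TGF-alpha and 8.63 and 8.08 CPM with the combined treatment (-1.02 ± 0.14, adjusted p = 3.78e-04). Of 9 tested osteoblast markers 4 were lower and 1 was higher, with fitted log2 fold changes from -0.89 to 2.19. Among the lower ones was the sphingomyelinase gene Smpd3 at 229.9 and 231 CPM in control and 147 and 135 CPM with the combined treatment (-0.70 ± 0.056, adjusted p = 2.06e-06). Whether the mixture of cells differed between the groups was not tested. Col3a1 and Postn were chosen after their values were seen.

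Contractile genes were lower in 11 of 22 tested cases, and all 22 fitted values were negative, with a median of -0.25. Serum response factor and its actin-sensing cofactors drive these genes in cells with stress fibres. Flna, filamin A, which crosslinks actin, was at 1234 and 1217 CPM in control, 1264 and 1162 CPM with TGF-alpha and 912 and 934 CPM with the combined treatment (log2 fold change -0.41 ± 0.046 (SE), adjusted p = 5.48e-05). Vcl, vinculin of focal adhesions, was at 265 and 266 CPM in control, 283 and 285 CPM with TGF-alpha and 199.7 and 206 CPM with the combined treatment (-0.39 ± 0.047, adjusted p = 1.07e-04), and both genes lay below the other 4 libraries. Mylk, the kinase of the myosin light chain, was at 72.3 and 74.4 CPM in control, 61.2 and 61.5 CPM with TGF-alpha and 51.05 and 50.3 CPM with the combined treatment (-0.53 ± 0.064, adjusted p = 1.01e-04). Tpm1, a tropomyosin, was at 739 and 724 CPM in control, 481 and 474 CPM with TGF-alpha and 563 and 583 CPM with the combined treatment, between control and TGF-alpha (-0.35 ± 0.043, adjusted p = 1.09e-04). With the length and GC correction 12 of the list were lower and the median was -0.33. The smooth muscle and pericyte markers summed to 1286 and 1202 CPM in control and 1165 and 1151 CPM in the combined treatment, and 1 of 8 tested was lower.

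Genes of TGF-beta and YAP signalling were lower in 9 of 20 cases, 6 of them beyond control, with a median log2 fold change of -0.17. The list mixes ligands, receptors and latent binding proteins with target genes, so its count is not one of pathway outputs. TGF-beta is a ligand unrelated to TGF-alpha. Its type II receptor gene Tgfbr2 was at 443 and 457 CPM in control, 318 and 323 CPM with TGF-alpha and 322 and 322 CPM with the combined treatment (log2 fold change -0.48 ± 0.044 (SE), adjusted p = 9.16e-06). Ltbp1, which holds latent TGF-beta in the matrix, was at 154 and 143 CPM in control, 556 and 525 CPM with TGF-alpha and 113 and 109.5 CPM with the combined treatment (-0.42 ± 0.056, adjusted p = 2.55e-04). The YAP targets Cyr61 and Amotl2 encode a matricellular protein and an adaptor that restrains YAP. Cyr61 was at 679.7 and 765 CPM in control, 1032 and 1089 CPM with TGF-alpha and 558 and 516 CPM with the combined treatment (-0.43 ± 0.058, adjusted p = 2.60e-04) and Amotl2 at 622 and 594 CPM in control, 468 and 449.6 CPM with TGF-alpha and 494 and 469 CPM with the combined treatment (-0.33 ± 0.047, adjusted p = 3.68e-04). The number lower was 4 without control 1 and 5 without control 2 or combined 2, and 8 with the length and GC correction.

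The insulin-like growth factor axis was lower in 9 of 19 tested cases, with 1 higher (0 higher and 8 lower with the length and GC correction). Igfbp5, a binding protein laid down in matrix, was at 3666 and 3730.1 CPM in control, 1697 and 1745 CPM with TGF-alpha and 2862 and 2803 CPM with the combined treatment (log2 fold change -0.38 ± 0.039 (SE), adjusted p = 2.29e-05). Igf2, the fetal growth factor, was at 9653 and 9508 CPM in control, 7513 and 7732 CPM with TGF-alpha and 8183 and 8189 CPM with the combined treatment (-0.23 ± 0.038, adjusted p = 0.0015). The imprinted long noncoding RNA H19 was at 15575 and 14946 CPM in control, 13698 and 13957 CPM with TGF-alpha and 12400.4 and 12750.3 CPM with the combined treatment (-0.28 ± 0.039, adjusted p = 3.68e-04), and Grb10, an imprinted adaptor that restrains the receptor, at 913 and 957 CPM in control, 773 and 759.7 CPM with TGF-alpha and 793 and 756 CPM with the combined treatment (-0.27 ± 0.045, adjusted p = 0.00126). Each of these 4 was below control in both combined libraries. The number lower was 5 without control 1.

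Hedgehog and Wnt components were lower in part. Of 8 hedgehog genes 4 were lower: the coreceptors Boc, Gas1 and Cdon and the transcription factor Gli3. Gas1 was at 357 and 368 CPM in control, 346 and 362 CPM with TGF-alpha and 296 and 296 CPM with the combined treatment (-0.29 ± 0.047, adjusted p = 0.00102), Boc at 278 and 283 CPM in control, 148 and 165 CPM with TGF-alpha and 209 and 221 CPM with the combined treatment (-0.38 ± 0.057, adjusted p = 5.22e-04), Gli3 at 59.01 and 56.8 CPM in control and 47.6 and 41.7 CPM with the combined treatment (-0.37 ± 0.077, adjusted p = 0.00664) and Cdon at 464 and 458 CPM in control and 411 and 407 CPM with the combined treatment (-0.17 ± 0.044, adjusted p = 0.0214). The hedgehog number was 2 without control 1 or combined 2, and 3 with the length and GC correction. Of 21 Wnt targets and inhibitors 4 were lower. The secreted Wnt antagonists Sfrp2, Frzb and Dkk3 were among them. Sfrp2 was at 343 and 322 CPM in control, 22.1 and 25.5 CPM with TGF-alpha and 237 and 239.9 CPM with the combined treatment (-0.48 ± 0.056, adjusted p = 7.80e-05), Frzb at 173 and 172 CPM in control, 51.2 and 60.3 CPM with TGF-alpha and 138 and 133 CPM with the combined treatment (-0.35 ± 0.065, adjusted p = 0.00346) and Dkk3 at 804 and 776 CPM in control, 778 and 769 CPM with TGF-alpha and 636 and 651 CPM with the combined treatment (-0.29 ± 0.042, adjusted p = 4.37e-04), so Dkk3 lay below the other 4 libraries. Among 23 BMP and Id genes, 3 were higher and 2 lower, which is 21.7% called against 9.52% of all genes, and the length and GC correction gave 2 higher and 3 lower. Id3, an inhibitor of helix-loop-helix factors, was at 319 and 286 CPM in control, 359 and 372 CPM with TGF-alpha and 436 and 446 CPM with the combined treatment (0.55 ± 0.054, adjusted p = 1.61e-05), and Gdf6, a BMP family ligand of joints, at 26.5 and 24.01 CPM in control, 24.01 and 27.8 CPM with TGF-alpha and 13.02 and 16.2 CPM with the combined treatment (-0.79 ± 0.13, adjusted p = 0.00111). The number of higher BMP and Id genes was 1 without combined 2. Leaving out 1 library ended the calls of Gli3 without control 1 or combined 2 (adjusted p up to 0.0725) and Cdon without control 1, control 2 or combined 2 (adjusted p up to 0.142). With the length and GC correction the threshold was missed by Cdon (log2 fold change -0.08, adjusted p = 0.287).

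Few cell cycle genes were called. Of 35 DNA replication genes edgeR called 0, and 4 had an unadjusted p under 0.05 (2 higher and 2 lower). DESeq2 and limma voom also called 0. Of 30 mitosis genes 1 was lower, Kif23, a kinesin of the midbody (-0.37 ± 0.11, adjusted p = 0.0433), and 9 had an unadjusted p under 0.05 (1 higher and 8 lower). In all, 23 of the 30 fitted values were negative. DESeq2 and limma voom called 0 lower, RLE scaling, upper-quartile scaling and a mean of at least 5 CPM gave 2, mRNA entries alone 4 and no filter on low counts 5. The proliferation marker Mki67, chosen after its values were seen, was at 82.3 and 83.04 CPM in control, 222 and 194 CPM with TGF-alpha and 73.1 and 71.3 CPM with the combined treatment (-0.19 ± 0.069, adjusted p = 0.0991). Ccnd1, cyclin D1, also chosen after its values were seen, was at 185 and 188 CPM in control, 371 and 355 CPM with TGF-alpha and 176 and 169 CPM with the combined treatment (-0.11 ± 0.050, adjusted p = 0.197). Of 15 D-type cyclins and CDK inhibitors 3 were higher: Cdk4, the kinase partner of cyclin D, at 281 and 307 CPM in control and 373 and 373 CPM with the combined treatment (0.34 ± 0.052, adjusted p = 6.87e-04), Cdkn2b, an inhibitor of that kinase, at 38.3 and 36.7 CPM in control and 56.1 and 49.97 CPM with the combined treatment (0.50 ± 0.081, adjusted p = 0.00105), and Cdkn1a, the inhibitor p21, at 287 and 314 CPM in control and 364 and 378 CPM with the combined treatment (0.30 ± 0.060, adjusted p = 0.0054). Of 22 p53 targets 3 were higher and 1 lower. Bax, which opens the outer mitochondrial membrane, was at 102 and 108 CPM in control, 90.6 and 100.5 CPM with TGF-alpha and 144 and 142 CPM with the combined treatment (0.45 ± 0.062, adjusted p = 3.00e-04). The p53 number was 1 without control 1. Of 21 death and survival genes 4 were higher, and this was 1 without control 1 or control 2 and 2 without combined 1, with 3 under the length and GC correction. In fits with 1 library left out, the calls were lost for Kif23 without control 1, control 2, TGF-alpha 1, TGF-alpha 2, combined 1 or combined 2 (adjusted p up to 0.222) and Cdkn1a without control 1 (adjusted p 0.0949).

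Immune genes were higher in small numbers. Of 16 complement and acute phase genes 5 were higher, all beyond control. C1s, a protease of the first complement complex, was at 93.97 and 98.2 CPM in control, 63.7 and 71.9 CPM with TGF-alpha and 118 and 127 CPM with the combined treatment (0.35 ± 0.067, adjusted p = 0.00422), and C4b at 317 and 314 CPM in control, 157 and 156 CPM with TGF-alpha and 368 and 357 CPM with the combined treatment (0.20 ± 0.045, adjusted p = 0.0122). That count was 1 without control 1 or control 2, 2 without combined 1 and 3 without combined 2, and the length and GC correction gave 4 higher and 1 lower. Of 26 interferon-stimulated genes 5 were higher, with a median log2 fold change of 0.29. TGF-alpha alone, against the same controls, raised 20 of the 26, with a median of 0.95. Ifit3, an interferon-induced antiviral protein, was at 4.61 and 5.92 CPM in control, 8.65 and 11.997 CPM with TGF-alpha and 14.6 and 14.95 CPM with the combined treatment (1.48 ± 0.19, adjusted p = 1.49e-04), and Bst2, tetherin, at 16.9 and 14.9 CPM in control, 17.7 and 23.1 CPM with TGF-alpha and 30.9 and 29.2 CPM with the combined treatment (0.92 ± 0.13, adjusted p = 3.38e-04). The interferon count was 3 without control 1, combined 1 or combined 2 and 2 without control 2. Of 16 antigen presentation genes 5 were higher. Of these, 1 lay beyond control and 4 differed from control in the same direction with TGF-alpha alone. B2m, the light chain of class I molecules, was at 219 and 207 CPM in control, 152 and 154 CPM with TGF-alpha and 254 and 257 CPM with the combined treatment (0.26 ± 0.050, adjusted p = 0.00351). H2-K1 and H2-D1 were also higher, with log2 fold changes of 0.57 and 0.50, but such near-identical genes can share reads. The antigen presentation count was 2 without control 2, and 4 with the length and GC correction. Calls lost when a single library was left out were those of C1s without control 1 (adjusted p 0.0652), C4b without control 1, control 2 or combined 1 (adjusted p up to 0.109) and B2m without control 2 (adjusted p 0.0743). The length and GC correction ended the calling of B2m (log2 fold change 0.18, adjusted p = 0.0509).

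Lists of mitochondrial and ribosomal genes hold many short transcripts, and a minority of the nuclear-encoded members was called. Of 40 nuclear genes of oxidative phosphorylation 12 were higher, with a median log2 fold change of 0.15, and 21 of the 40 belong to the bin of the shortest genes. With the length and GC correction 8 were higher and the median was 0.06. The cytochrome oxidase subunit gene Cox5a was at 16.8 and 16.4 CPM in control and 28.3 and 24.3 CPM with the combined treatment (0.67 ± 0.11, adjusted p = 0.0013). The count was 6 without control 1 or combined 2 and 3 without control 2. Of 13 mRNAs of the mitochondrial genome 7 were higher, and their count was 3 without control 1 or control 2 and 4 without combined 2. ND4L, a complex I subunit, was at 54.9 and 47.3 CPM in control and 89.3 and 115 CPM with the combined treatment (1.00 ± 0.13, adjusted p = 1.48e-04). Of 42 cytosolic ribosomal protein genes 8 were higher. With the correction 4 were higher and 2 lower, and the median moved from 0.09 to -0.02. The ribosomal count was 3 without control 1 or combined 2 and 2 without control 2, and pseudogenes of these genes can share their reads. Lars2, a mitochondrial leucyl-tRNA synthetase gene and among the largest falls, was at 1483 and 1612 CPM in control, 1407 and 955 CPM with TGF-alpha and 669 and 806 CPM with the combined treatment (-1.07 ± 0.13, adjusted p = 8.07e-05), and the share of Rn18s-rs5 given above was likewise highest in the controls and lowest in the combined libraries. The part of Rn18s-rs5 in the Lars2 result was not tested.

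Of 23 glycolysis genes 6 were higher and 1 was lower (30.4% called against 9.52% of all genes), and 5 of the 7 lay short of control, between it and TGF-alpha. Eno2, the neuronal form of enolase, was at 15.6 and 16.6 CPM in control, 35.99 and 34.4 CPM with TGF-alpha and 26.04 and 28.5 CPM with the combined treatment (0.76 ± 0.10, adjusted p = 2.60e-04). Aldoc, the brain form of aldolase, was at 28.3 and 26.3 CPM in control, 58.8 and 60.4 CPM with TGF-alpha and 39.4 and 40.5 CPM with the combined treatment (0.55 ± 0.081, adjusted p = 5.22e-04). The number higher was 3 without control 1 or combined 2 and 2 without control 2, 3 with DESeq2 and 3 with the length and GC correction. Of 22 genes restrained by PI3K and AKT or driven by FoxO factors, 3 were higher and 5 lower (36.4% called), and the correction left 3 higher and 4 lower. Txnip, which binds thioredoxin, was at 623 and 647 CPM in control, 788 and 822 CPM with TGF-alpha and 502 and 492 CPM with the combined treatment (-0.35 ± 0.044, adjusted p = 1.45e-04), and Trib2, a pseudokinase, at 13.8 and 12.5 CPM in control, 23.7 and 19.6 CPM with TGF-alpha and 6.85 and 7.84 CPM with the combined treatment (-0.84 ± 0.15, adjusted p = 0.00266). These counts were 1 without control 2 for the higher and 3 without control 1 for the lower genes. Of 14 hyaluronan and superficial zone genes 2 were higher and 4 lower (42.9% called, 1 higher and 3 lower with the correction), the latter 2 without control 1 or control 2. Cd44, the hyaluronan receptor, was at 39.2 and 40.1 CPM in control, 147 and 148 CPM with TGF-alpha and 30.8 and 32.5 CPM with the combined treatment (-0.32 ± 0.070, adjusted p = 0.00902), and Abi3bp, a matrix protein, at 958 and 957 CPM in control, 281 and 297 CPM with TGF-alpha and 791 and 827 CPM with the combined treatment (-0.24 ± 0.045, adjusted p = 0.003). Of 28 genes of endoplasmic reticulum chaperones and secretion 1 was higher and 2 were lower, or 10.7%, and the correction gave 2 higher and 4 lower. Creb3l1, a factor that drives collagen secretion, was at 133 and 130.5 CPM in control, 96.9 and 94.9 CPM with TGF-alpha and 94.7 and 89.2 CPM with the combined treatment (-0.52 ± 0.057, adjusted p = 4.35e-05). Of 16 clock genes 1 was higher and 2 lower, or 18.8% (1 higher and 1 lower with the correction). Bhlhe40, a repressor in the clock, was at 36.9 and 34.3 CPM in control, 101 and 101 CPM with TGF-alpha and 57.7 and 57.97 CPM with the combined treatment (0.70 ± 0.069, adjusted p = 1.61e-05). Of 21 immediate early genes 2 were higher and 2 lower (19.05% called), and of 26 matrix proteases and inhibitors 2 and 2 (15.4%, 2 higher and 1 lower with the correction). Shares close to or under the 9.52% of all genes were found for 19 drug transport and conjugation genes, with 1 higher and 1 lower (10.5%), for 32 ribosome biogenesis genes, with 1 and 1 (6.25%), and for 22 basement membrane genes, with 1 lower (4.55%). With the correction ribosome biogenesis had 2 higher and 2 lower and the basement membrane list 2 higher and 0 lower. Dropping 1 library removed the calls of Cd44 without control 1, control 2 or combined 1 (adjusted p up to 0.0848).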

How the data were processed

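RNA from cultured mouse epiphyseal chondrocytes was sequenced as Ion Proton libraries, per the labels' protocols, in 3 groups of 2. The authors deposited 1 table of raw read counts per gene symbol with 44788 entries, of which 19649 had no count. The genome build named is GRCm38, per the submitters' processing notes. Which aligner, counter, annotation and strand setting were used is not given in the sources used here. Without a known strand setting, overlapping and antisense genes cannot be told apart. Library totals ran from 12317407 to 16096263 counts.

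The deposited counts were tested in R 4.3.3 with edgeR 4.0.16 (glmQLFit and glmQLFTest, two-sided) on all 6 libraries with TMM scaling. The low-count filter was filterByExpr (minimum count 10), and 15362 entries passed. Genes were called at a Benjamini-Hochberg adjusted p under 0.05. Levels are CPM on TMM-scaled library totals. Standard errors are the log2 fold change over the root of the F statistic. Positions were matched by symbol to RefSeq for 14870 tested entries, and length and GC content to GENCODE vM21 transcripts for 14064. On simulated counts with known changes this fit made more false calls than the nominal threshold allows and missed most changes of the smallest simulated size, so single calls of small size carry more doubt than their adjusted p states.

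The gene lists and the comparison were chosen with earlier results of these data known. Named genes were Egfr with Tgfa, the 12 strongest changes each way and the 8 largest per class and direction with a mean of at least 5 CPM, up to 4 called members per list and 2 markers per cell type. Genes outside this rule are marked where they appear, and some genes the rule names are not reported here. Alternatives were other scalings, filters, DESeq2 1.42.0, limma 3.58.1 with voom, the 4 libraries alone, mRNA entries alone, a test against a 1.2-fold change, a replicate block and leaving out each library. The length and GC correction was added after seeing the data.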

Additional observations from a re-analysis of the deposited data

How the results depend on the processing

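Against 1463 genes called (809 higher, 654 lower), DESeq2 called 946, of which 491 were higher, and a test against a 1.2-fold change called 277 (190 higher and 87 lower). Total counts in place of TMM gave 1333 higher and 388 lower, and moved the median log2 fold change of all genes to 0.07. Genes called at least 2-fold numbered 106, against 180 with no filter, 43 with a mean of at least 5 CPM, 46 with DESeq2 and 59 with the 1.2-fold test. With DESeq2, 177 genes lay beyond control, 213 in the same direction and 303 apart from both. With the 1.2-fold test these were 39, 66 and 96, and 22 lay short of control. Leaving out 1 library gave 649 to 1291 called (375 to 731 higher and 274 to 560 lower), 64 to 128 at least 2-fold, 95 to 212 beyond control, 88 to 147 short of control, 163 to 371 in the same direction and 262 to 418 apart from both. The fits without a library leave 1 sample in a group, which is assumed to vary like the other groups.

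The calls of 279 genes were followed through the alternatives, and this set includes genes not named here. Of the 279, 100 were called under all 19 alternatives, and all 279 kept their direction. The groups share replicate numbers, but same-numbered libraries did not deviate together: the correlations of replicate differences were 0.0034, 0.011 and -0.023. With a replicate block 1335 genes were called, with the block and the length and GC correction 1075, and the length and GC correction alone gave 1177, of which 968 were shared with the 1463. Depth of 12317407 to 16096263 counts with 2 libraries a group limits what could be called among genes at a few CPM.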
